A study of Mus musculus with 16 samples.

Results

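Transcripts of T lymphocytes were followed in mouse stomach through 10 genes: Cd3e, Cd3d and Cd3g (chains of the T cell receptor complex), Cd4 and Cd8a (coreceptors), Lck (the kinase bound to the coreceptors), Cd2 and Cd5 (surface proteins of T cells), Icos (a costimulatory receptor) and Ptprc (CD45, on all leukocytes). They were chosen by symbol, and all 10 were found among the 24964 genes counted. RNA had been sequenced in 16 libraries made from 4 mm biopsies, which were taken along the lesser curvature of the corpus, the acid-secreting body of the stomach; the mice were female and aged 8 weeks. There were 4 groups of 4 libraries, named by genotype and treatment. WT mice were C57BL/6, and TTPΔARE mice, congenic on C57BL/6, carried an allele of Zfp36 without the AU-rich element of its transcript; the labels do not say in which cells, or on how many copies. In the A groups (WT-A and TTP-A) the treatment was adrenalectomy, given as the inducer of gastric inflammation. For the S groups (WT-S and TTP-S) the treatment label gives SPEM, short for spasmolytic polypeptide-expressing metaplasia, in which injured glands turn mucous. The labels leave out what was done to these mice, so S is used only as a group name. The labels do not say that each library came from a separate mouse, so the p-values measure the spread between libraries.

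A T cell recognises peptide on a major histocompatibility molecule through its receptor, whose antigen-binding chains are carried to the surface by the CD3 chains. CD4 or CD8 binds the same major histocompatibility molecule and brings Lck to the receptor, where Lck phosphorylates CD3. CD45 is the phosphatase that keeps Lck ready to act, and ICOS appears on T cells once they are activated. Zfp36 encodes tristetraprolin (TTP), a protein that hastens the decay of transcripts with AU-rich elements. The comparisons ask how T cell transcripts differ between A and S in each genotype, between the genotypes in each treatment, and whether the response to A depends on the genotype.

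In both genotypes Icos was 2.61-fold to 2.84-fold higher in A than in S, with no overlap between the libraries. Its call in TTPΔARE mice was lost in 3 of 8 fits with 1 library removed. Cd2 was called higher in A in WT mice and Ptprc in TTPΔARE mice, both calls being lost in some of the other fits given beside their values. Cd4, at 2.63 to 6.77 CPM (read counts scaled to a common library size of 1e6), was not called between A and S, and its libraries lay higher in TTPΔARE than in WT mice in either treatment, without passing the main test, of edgeR, in 16 libraries. The CD3 chains, Cd8a and Cd5 were represented by 0 to 19 counts per library.

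The libraries held 17453930 to 25849472 counts, so that 1 CPM (on library sizes scaled by the trimmed mean of M-values) stood for 17.9 to 29.0 counts. Zfp36, the gene that carries the altered allele, was at 55.1 to 88.6 CPM in the 8 WT libraries and at 110.5 to 131.4 CPM in the 8 TTPΔARE libraries. WT-A 3 and WT-A 4 stand apart: their deviation from the gene medians rose with the GC content of transcripts (Spearman rho 0.716 and 0.738 across 11493 genes, which are not independent replicates), against an absolute rho of at most 0.302 in the other 14 libraries. Values without this pair are given as "14 libraries" wherever they change the call of a gene, or a count of calls, given here. In these bulk samples, fewer T cells and less RNA per T cell cannot be told apart.

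A gene was tested where it reached about 0.45 CPM, equal to 10 counts in a library of median depth, in at least 4 libraries. Of the 10 genes, 6 passed: Cd3g, Cd4, Cd2, Lck, Icos and Ptprc. The other 4, Cd3e, Cd3d, Cd8a and Cd5, were too low to read. The limit fell within the CD3 family, since Cd3g and Cd2 had 10 or more counts in 4 libraries and Cd3e in 3. A gene near the limit that passed only through its higher groups had to differ, so the passing of this filter is no evidence of change. Cd2 and Cd3g reached the limit in 4 A libraries and in no S library, Icos in 8 A and 3 S libraries and Lck in 8 A and 2 S libraries, so that only Cd4 and Ptprc would have passed through the S libraries alone. With no filter, Icos had an adjusted p of 0.00772 between WT-A and WT-S and 0.017 between TTP-A and TTP-S, and Cd2 one of 0.0179 between WT-A and WT-S. A gene is said to have risen or fallen where its adjusted p was under 0.05 in the quasi-likelihood test of edgeR, adjusted by Benjamini-Hochberg over the 15385 genes tested.

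The CD3 chains carry the signalling motifs of the receptor. Their genes lie in 1 cluster on chromosome 9 (GRCm38), with Cd3g at 44969572 to 44980431, Cd3d at 44981786 to 44987339 and Cd3e at 44998740 to 45009627. Cd3d and Cd3g are transcribed away from each other from start sites 1355 bases apart. Cd3e counts were 0, 9, 8 and 6 in WT-S, 6, 14, 19 and 5 in WT-A, 3, 6, 6 and 5 in TTP-S, and 11, 5, 8 and 4 in TTP-A. The groups overlapped throughout. Cd3d counts were 0, 2, 0 and 0 in WT-S, 1, 4, 4 and 2 in WT-A, 0 in every TTP-S library, and 2, 1, 2 and 1 in TTP-A. Cd3d thus stood at 19 counts in all 16 libraries together, and no fold is given for TTP-A against TTP-S, since no library of these groups exceeded the floor of 3 counts.

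Cd3g, the only CD3 chain that passed the filter, had 3, 4, 3 and 9 counts in WT-S, 5, 14, 15 and 3 in WT-A, 3, 3, 1 and 1 in TTP-S, and 12, 13, 2 and 5 in TTP-A. Within each A group some libraries were as low as those of S. The log2 difference was 0.59 between WT-A and WT-S (SE 0.58, adjusted p = 0.477) and 2.01 between TTP-A and TTP-S (SE 0.68, adjusted p = 0.132), where the 95% interval ran from 0.56 to 3.47. The summed level of the 3 CD3 chains was 0.168 to 0.768 CPM in WT-S, 0.433 to 1.48 in WT-A, 0.243 to 0.371 in TTP-S and 0.463 to 1.14 in TTP-A. The summed level was highest in WT-A 3 and lowest in WT-S 1, the library with the fewest counts, and the TTP-A range lay above that of TTP-S.

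Cd8a, which with Cd8b1 forms the coreceptor of cytotoxic T cells, had 1 to 4 counts in WT-S, 2 to 6 in WT-A, 1 or 2 in TTP-S and 0 to 8 in TTP-A. Cd8b1 had at most 2 counts in any library. Cd5, a receptor that dampens signals of the T cell receptor, had 0, 2, 1 and 0 counts in WT-S, 2, 8, 10 and 3 in WT-A, 4, 5, 3 and 5 in TTP-S, and 3, 2, 2 and 7 in TTP-A. All TTP-S libraries were above all WT-S libraries, and the other groups overlapped. In a fit with no filter on low counts, Cd5 had a log2 difference of 2.45 between WT-A and WT-S (SE 0.75, adjusted p = 0.0411), which did not pass the threshold in 14 libraries (2.14, adjusted p = 0.153). That fit gave no other adjusted p under 0.05 for Cd3e, Cd3d, Cd8a or Cd5 in any comparison, the lowest being 0.16 for Cd3d between TTP-A and TTP-S. In the plot of counts per library these 4 genes stayed at or under 19 counts.

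**Figure D1:**
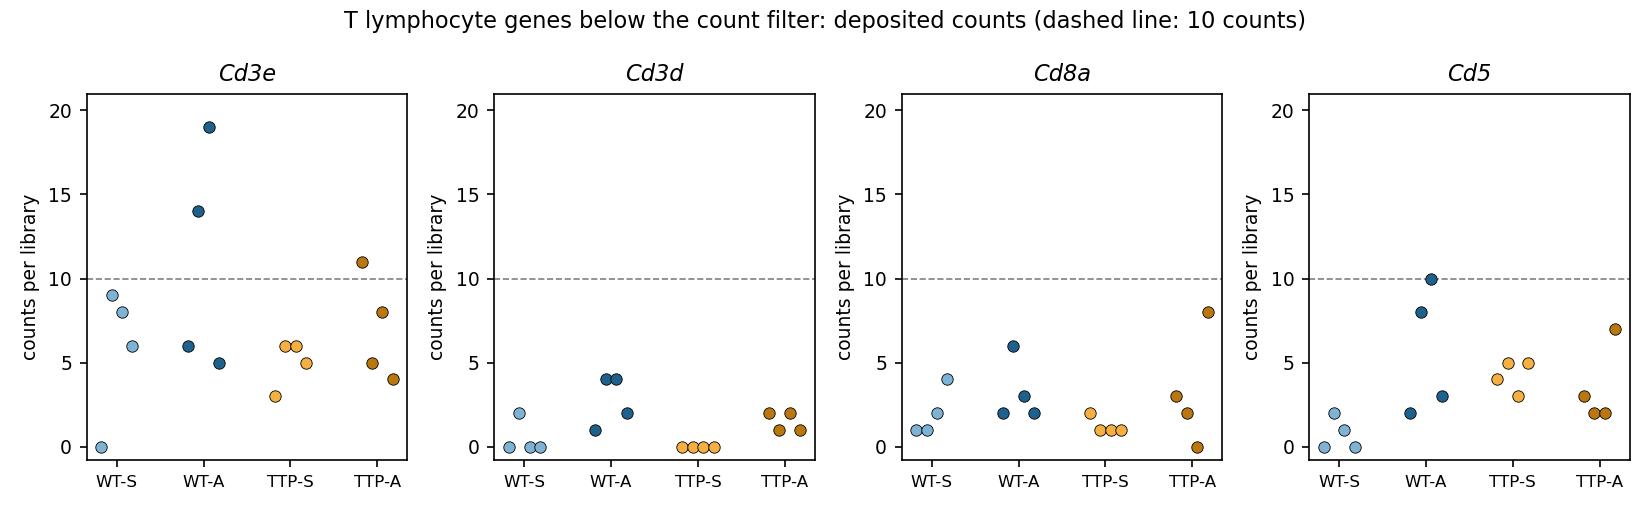
Deposited counts per library (y axis) of Cd3e, Cd3d, Cd8a and Cd5, the genes below the filter, by group (x axis), with each point 1 library and the dashed line at 10 counts. Only Cd3e exceeded 10 counts, in 3 libraries, and Cd3d was at 0 in all 4 TTP-S libraries.

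Lck, the Src family kinase that starts signalling from the receptor, is transcribed from chromosome 4, 129548344 to 129573641. It stood at 0.168, 0.382, 0.528 and 0.461 CPM in WT-S, 0.469, 0.655, 0.936 and 0.783 in WT-A, 0.284, 0.453, 0.543 and 0.393 in TTP-S, and 0.999, 0.918, 0.768 and 0.972 in TTP-A. All TTP-A libraries were above all TTP-S libraries, while WT-A 1 lay within the range of WT-S. The log2 difference between TTP-A and TTP-S was 1.13 (SE 0.30), with an adjusted p of 0.0524 just above the threshold. The same difference passed in 14 libraries (adjusted p = 0.0343) and by the Wald test of DESeq2 (1.14, adjusted p = 0.0482), but not without a filter (0.0715) or in any of the 8 fits with 1 library removed (adjusted p = 0.0558 to 0.169). In WT mice the log2 difference was 0.85 (SE 0.30, adjusted p = 0.0603; 14 libraries 0.53, adjusted p = 0.374), and it passed without WT-A 1 (adjusted p = 0.0219).

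Icos, a receptor of activated and follicular helper T cells, lies on chromosome 1, 60977927 to 61000320. Which cells held its transcript in these bulk samples was not tested, and Cd3g was not called between A and S. Icos was at 0.448, 0.339, 0.484 and 0.461 CPM in WT-S and at 0.722, 1.41, 1.40 and 1.0 in WT-A. It was at 0.486, 0.412, 0.445 and 0.295 CPM in TTP-S and at 0.818, 0.966, 1.68 and 1.25 in TTP-A. No A library overlapped an S library in either genotype. Icos rose by a log2 of 1.39 in WT mice (SE 0.29, adjusted p = 0.00613) and 1.504 in TTPΔARE mice (SE 0.29, adjusted p = 0.0156). It was also called in 14 libraries (1.30, adjusted p = 0.0286, and 1.504, adjusted p = 0.0116). The rise in TTPΔARE mice lost its call in 3 of the 8 fits with 1 library removed, with an adjusted p of up to 0.0642 (TTP-S 4 removed).

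Cd2, the adhesion receptor by which T and natural killer cells bind partner cells, lies on chromosome 3, 101275899 to 101287939. It was at 0.112, 0.127, 0.176 and 0.256 CPM in WT-S, 0.325, 0.517, 0.702 and 0.478 in WT-A, 0.202, 0.288, 0.247 and 0.197 in TTP-S, and 0.500, 0.386, 0.144 and 0.324 in TTP-A. WT-A lay wholly above WT-S, whereas TTP-A 3 lay below every TTP-S library. These levels rest on 2 to 18 counts per library. Cd2 rose in WT mice by a log2 of 1.56 (SE 0.37, adjusted p = 0.0122), and this call was lost in 14 libraries (1.31, adjusted p = 0.0719). In TTPΔARE mice the log2 difference was 0.53 (SE 0.37, adjusted p = 0.591).

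Cd4, the coreceptor of helper T cells, which some macrophages and dendritic cells also carry, lies on chromosome 6, 124864692 to 124888221. It was at 3.42, 3.35, 2.77 and 3.64 CPM in WT-S, 2.63, 3.73, 4.84 and 4.74 in WT-A, 5.91, 5.48, 5.48 and 3.64 in TTP-S, and 6.18, 5.51, 6.77 and 5.33 in TTP-A. A and S overlapped in both genotypes, with log2 differences of 0.27 in WT mice (SE 0.19, adjusted p = 0.308; 14 libraries -0.043) and 0.21 in TTPΔARE mice (SE 0.18, adjusted p = 0.675). The intervals ran from -0.13 to 0.68 and from -0.18 to 0.60.

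Ptprc, the pan-leukocyte phosphatase on chromosome 1, 138062861 to 138175708, and Cd4 had the highest levels per length of the 10 genes, in an order that depended on the length used. Per kilobase of the longest coding transcript, the mean level over 16 libraries was 2.56 CPM per kb for Ptprc and 1.48 for Cd4, and per kilobase of all annotated exons it was 0.709 for Ptprc and 1.14 for Cd4. Ptprc was at 13.0, 11.3, 9.95 and 10.2 CPM in WT-S, 16.4, 19.5, 15.3 and 9.61 in WT-A, 8.71, 10.6, 8.10 and 6.49 in TTP-S, and 22.4, 12.03, 15.2 and 18.9 in TTP-A. TTP-A lay wholly above TTP-S, and in WT-A only WT-A 4 was as low as WT-S. Ptprc rose in TTPΔARE mice by a log2 of 1.01 (SE 0.21, adjusted p = 0.0227), a call lost in 5 of the 8 fits with 1 library removed (up to adjusted p = 0.0951, TTP-A 1 removed). In WT mice the log2 difference was 0.46 (SE 0.21, adjusted p = 0.13), and it passed in 14 libraries (0.69, adjusted p = 0.0456) and with WT-A 4 alone removed (0.62, adjusted p = 0.0372). The longest Ptprc transcript has a GC content of 39.4%, at the 4.28th percentile of the genes tested, and WT-A 3 and WT-A 4 held the lowest levels of WT-A. Cd3g, at the 2.64th percentile (38.5%), was instead highest of WT-A in WT-A 3 and lowest in WT-A 4. The part of GC content in these values was not tested.

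**Figure D2:**
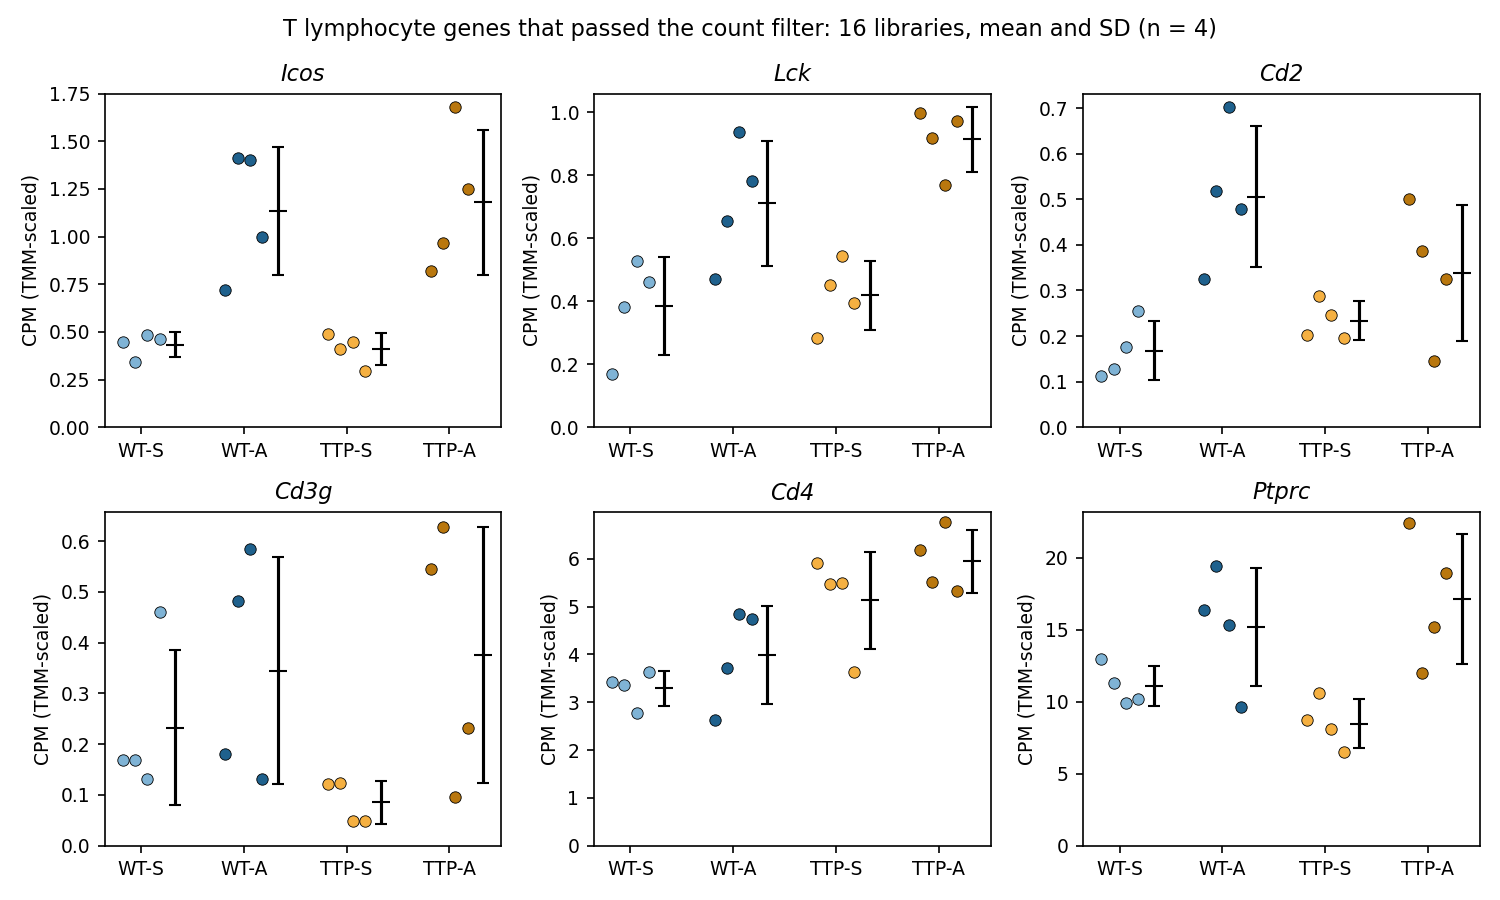
TMM-scaled CPM (y axis, from 0) of the 6 tested genes in each library by group (x axis), with the mean and SD (n = 4) beside the points. Icos was higher in every A library than in any S library of its genotype, and Cd4 was higher in TTPΔARE than in WT libraries of the same treatment.

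As a description, since 4 of the 6 passed the filter with the help of A libraries, 2 of the 6 tested genes (Icos and Cd2) were called between WT-A and WT-S, both higher, where 18.8% of all genes tested were called (9.8% higher and 8.99% lower). Their median log2 difference was 0.72, against 0.0094 over all genes. Between TTP-A and TTP-S, 2 of 6 (Icos and Ptprc) were called, both higher, where 2.9% of all genes were called (1.55% higher and 1.35% lower), with a median of 1.07 against -0.0010. Groups did not overlap for 2 of the 6 tested genes in WT mice (of all genes, 9.2% were higher and 8.48% lower without overlap) and for 3 of 6 in TTPΔARE mice (6.94% and 6.77%). In 14 libraries 2 genes were called in WT mice (Icos and Ptprc), where 10.5% of all genes were, and 3 in TTPΔARE mice (Icos, Lck and Ptprc), where 6.33% of all genes were. The count in TTPΔARE mice was 0 without TTP-S 4 or without TTP-A 4, and 1 without TTP-S 1, TTP-S 2, TTP-S 3 or TTP-A 1.

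**Figure D3:**
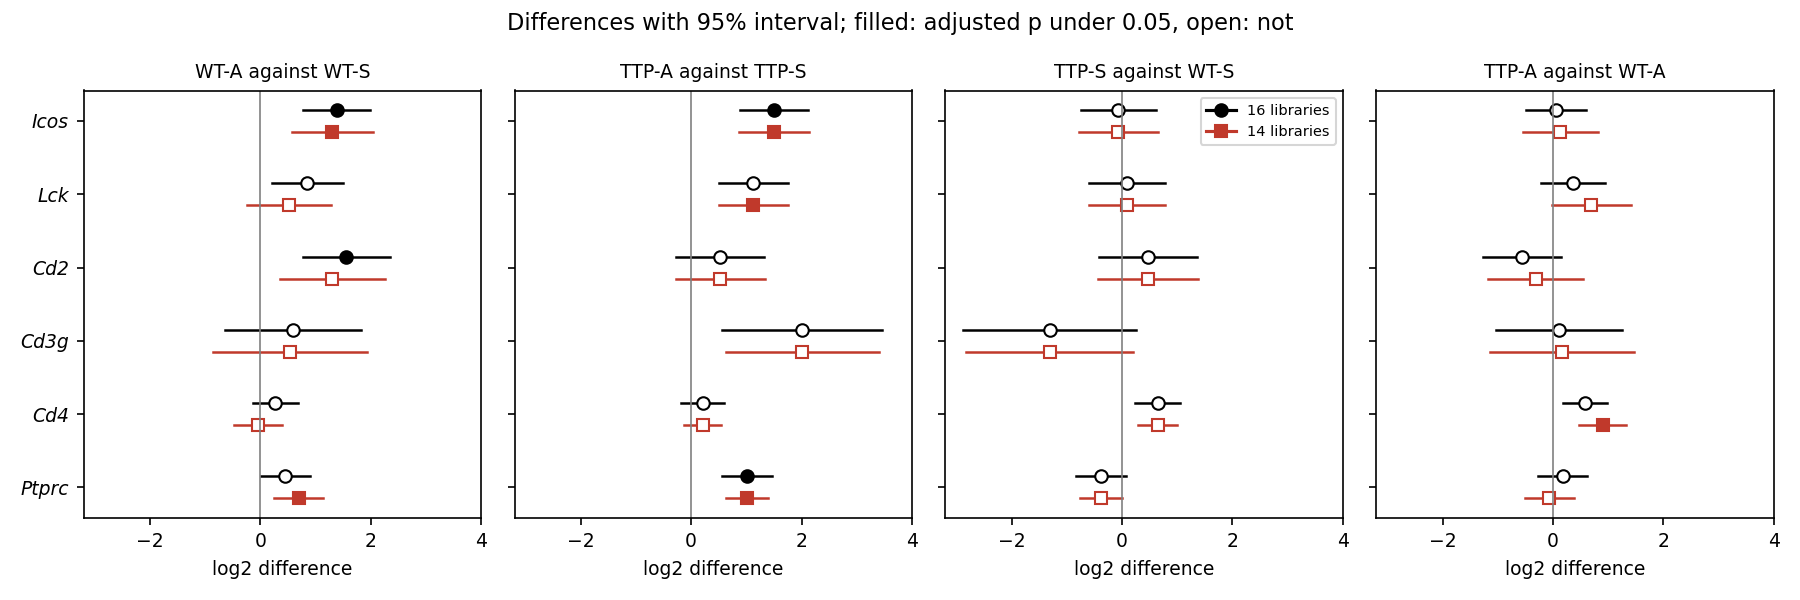
Log2 difference (x axis) with its 95% interval for the 6 tested genes (y axis) in 4 comparisons, from 16 libraries (black) and 14 libraries (red), with filled symbols for an adjusted p under 0.05. Icos was called in both comparisons of A with S, and Cd4 was called only between TTP-A and WT-A in 14 libraries.

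The genotypes were compared within each treatment. In S, none of the 6 tested genes was called (0.0325% of all genes were called, all of them higher, with 0% lower), and only Cd4 had an unadjusted p under 0.05 (0.00377). DESeq2 and the other alternatives run on this comparison also called none. Cd4 had a log2 difference of 0.64 between TTP-S and WT-S (SE 0.19, adjusted p = 0.372), with no overlap (3.5% of all genes were higher and 3.24% lower without overlap), although the lowest TTP-S library and the highest WT-S library were both at 3.64 CPM to 3 digits. Cd3g lay lower in TTP-S without overlap (-1.31, SE 0.74, adjusted p = 0.753), at 1 to 3 counts per library. The differences of Icos (-0.067, SE 0.32), Lck (0.089, SE 0.33), Cd2 (0.47, SE 0.42) and Ptprc (-0.38, SE 0.22) had intervals that included 0.

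In A, none of the 6 was called between TTP-A and WT-A in 16 libraries (5.17% of all genes were called, 2.87% higher and 2.3% lower), and only Cd4 had an unadjusted p under 0.05 (0.00628). Cd4 was higher in every TTP-A library than in any WT-A library (5.99% of all genes were higher and 6.22% lower without overlap), by a log2 of 0.58 (SE 0.18, adjusted p = 0.0704). It was called in 14 libraries (0.90, adjusted p = 0.0358) and by the Wald test of DESeq2 (0.59, adjusted p = 0.0314), but not without a filter (0.0864), in a fit of the A groups alone (0.195) or in any of the 8 fits with 1 library removed (0.0706 to 0.18). Icos (0.051, SE 0.26, interval -0.49 to 0.59), Lck (0.37, SE 0.27), Cd2 (-0.56, SE 0.33), Cd3g (0.11, SE 0.54) and Ptprc (0.17, SE 0.21; 14 libraries -0.064) were not called. Each of these comparisons shares its libraries with the comparisons of A with S, so the sets of values are not independent.

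Whether the response to A depended on the genotype was tested as an interaction, for which 0.0585% of all genes (0.0325% higher, 0.026% lower) and none of the 6 were called. None of the 6 was called in 14 libraries or by DESeq2, and in 16 libraries none had an unadjusted p under 0.05. The interaction was 0.12 for Icos (SE 0.41, adjusted p = 0.913), 0.56 for Ptprc (SE 0.30, adjusted p = 0.374), 0.28 for Lck (SE 0.43, adjusted p = 0.765), -1.03 for Cd2 (SE 0.54, adjusted p = 0.367), 1.42 for Cd3g (SE 0.91, adjusted p = 0.447) and -0.062 for Cd4 (SE 0.26, adjusted p = 0.924). The call of Cd2 in WT mice alone, and that of Ptprc in TTPΔARE mice alone, are thus not shown to differ between genotypes. The interval of the interaction for Icos ran from -0.75 to 0.99.

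Because the altered allele is of a gene whose product binds RNA, the 3′ UTRs of the 10 genes were searched on the sense strand for the 7 letters TATTTAT, the DNA spelling of the core element bound by TTP. The longest annotated 3′ UTR of each gene was used (GENCODE M21, GRCm38). Cd4 and Ptprc each held 1 match and the other 8 genes none, and 27.6% of 21020 genes with a 3′ UTR held a match, at a median UTR length of 961 bases. The matches are printed with 10 bases on each side and the motif in capitals, because no other of the 10 genes holds one.
Cd4: cccatcagctTATTTATtcttcgctgc
Ptprc: cattactgtgTATTTATcttgaatttc
The Cd4 match covers chr6:124866030-124866036, minus strand, and starts at base 209 of a 3′ UTR of 1553 bases. The Ptprc match covers chr1:138063495-138063501, minus strand, at base 1005 of 1099. A match is a description of the letters only. Neither gene was called between genotypes by edgeR in 16 libraries. By the Wald test of DESeq2, Cd4 was called between TTP-A and WT-A (adjusted p = 0.0314). Icos held no match in a 3′ UTR of 2606 bases. The shorter letters ATTTA occurred 6 times in Cd8a, 5 in Ptprc, 2 in Icos and Cd3e, and 1 in Cd4 and Cd2. Cd3d, Cd3g, Cd5 and Lck held none, and 65.2% of genes with a 3′ UTR held at least 1.

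Other genes of T cells were then read from lists taken from general knowledge. Of 22 genes of receptor signalling and costimulation, 14 were tested, of which 5 reached the filter limit in fewer than 4 S libraries. In WT mice 3 rose and none fell, with a median log2 of 0.45, where 18.8% of all genes were called, a share near that of the list. They were Zap70 (0.78, SE 0.24, adjusted p = 0.033), the kinase recruited to phosphorylated CD3, Fyn (0.38, SE 0.09, adjusted p = 0.00953), a Src family kinase that many cell types express, and Prkcq (0.62, SE 0.20, adjusted p = 0.0432), the protein kinase C of T cells. Zap70 was at 0.661 ± 0.202 CPM in WT-S and 1.12 ± 0.157 in WT-A (SD, n = 4). In 14 libraries Zap70 (adjusted p = 0.0856) and Fyn (adjusted p = 0.0752) were not called, and with 1 library removed Zap70 lost its call in 5 of 8 fits (up to 0.0906, WT-S 2 removed) and Prkcq in 6 (0.115, WT-A 3 removed). In TTPΔARE mice 1 of the 14, Zap70, rose (0.97, SE 0.24, adjusted p = 0.0417), from 0.604 ± 0.129 to 1.195 ± 0.258 CPM, with a median of 0.73 for the list (2.9% of all genes were called). That call was lost without a filter (adjusted p = 0.0552) and in 7 of the 8 fits with 1 library removed (up to 0.156, TTP-A 4 removed). Prkcq in WT mice was likewise not called without a filter (adjusted p = 0.0548). In 14 libraries, where 10.5% of all genes were called in WT mice and 6.33% in TTPΔARE mice, 1 gene of this list was called in WT mice and 5 in TTPΔARE mice, all higher.

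Genes of T cell subsets and homing numbered 22, of which 16 were tested. In WT mice 7 rose and 1 fell (median log2 0.68), where 9.8% of all genes rose and 8.99% fell. In TTPΔARE mice 3 rose and none fell (0.48), where 1.55% rose and 1.35% fell. Foxp3 and Ccr7 reached the filter limit in A libraries only and Cxcr6 in 8 A libraries and 1 S library, so these counts rest in part on genes that passed through the A groups. In 14 libraries 5 rose and none fell in WT mice, and 5 rose and 1 fell in TTPΔARE mice, beside 10.5% and 6.33% of all genes called in either direction. Foxp3, the factor that defines regulatory T cells, had 4, 5, 5 and 7 counts in WT-S, 18, 15, 19 and 15 in WT-A, 11, 7, 9 and 6 in TTP-S, and 18, 14, 12 and 18 in TTP-A. Every A library was above every S library of its genotype. Foxp3 rose by a log2 of 1.32 in WT mice (SE 0.26, adjusted p = 0.00448) and 0.97 in TTPΔARE mice (SE 0.24, adjusted p = 0.0473), the latter lost in 7 of the 8 fits with 1 library removed (up to adjusted p = 0.177, TTP-A 1 removed), by DESeq2 (adjusted p = 0.135) and without a filter (0.074).

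Cxcr6, a chemokine receptor of tissue-resident lymphocytes, rose in both genotypes, by 1.66 in WT mice (SE 0.32, adjusted p = 0.00443) and 1.39 in TTPΔARE mice (SE 0.30, adjusted p = 0.026). The call in TTPΔARE mice was lost in 7 of the 8 fits with 1 library removed (up to adjusted p = 0.0958, TTP-S 4 removed). Il2rg, the common cytokine receptor chain, rose in TTPΔARE mice by 0.75 (SE 0.19, adjusted p = 0.0433), and lost its call in 7 of 8 such fits (0.179, without TTP-A 1). Cd44, an adhesion receptor that memory T cells and many other cells carry, rose in WT mice by 0.76 (SE 0.21, adjusted p = 0.0224), a call lost in 4 of 8 such fits (0.0742, without WT-S 2). S1pr1, a receptor that draws lymphocytes out of tissue and that endothelium also expresses, fell by 0.42 in WT mice (SE 0.10, adjusted p = 0.0152; 14 libraries adjusted p = 0.13; 0.0571 with WT-S 2 removed). S1pr1 was higher in TTP-A than in WT-A (0.40, adjusted p = 0.0405; 14 libraries 0.26, adjusted p = 0.216), a call lost in 6 of the 8 fits with 1 library removed (up to 0.13, WT-A 3 removed) and without a filter (0.0511). At most 4 genes were named per comparison, so naming in 1 genotype shows no difference between genotypes. Means in WT-S and WT-A were 5.02 and 7.565 CPM for Il2rg. Those in TTP-S and TTP-A were 17.6 and 25.9 CPM for Cd44 and 15.5 and 11.95 for S1pr1. For the interaction, 0 genes of this list were called (0.0585% of all genes).

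Of 16 effector genes of T cells, 4 had enough counts for a test. Il13, Tnf and Il5 reached the limit of the filter in A libraries only, and Gzmb in A libraries and WT-S 3, so that their passing it depended on the groups where they are high, and the count of 4 called higher in WT mice is no support for a rise of the list. Il13, a cytokine of type 2 helper T cells and innate lymphoid cells, had 4, 1, 1 and 2 counts in WT-S, 21, 22, 31 and 19 in WT-A, 1, 3, 3 and 1 in TTP-S, and 17, 8, 15 and 8 in TTP-A. The S libraries were all below the A libraries. Il13 rose by a log2 of 3.12 in WT mice (SE 0.45, adjusted p = 0.00115) and 2.58 in TTPΔARE mice (SE 0.47, adjusted p = 0.0128). The call in TTPΔARE mice was lost in 2 of the 8 fits with 1 library removed (up to adjusted p = 0.0566, TTP-A 1 removed). Tnf, an inflammatory cytokine made by T cells and macrophages, rose in WT mice by 2.44 (SE 0.44, adjusted p = 0.00337), from 2 or 3 counts per library in WT-S to 11 to 24 in WT-A. Gzmb, a protease of cytotoxic granules, rose by 2.01 (SE 0.52, adjusted p = 0.0174), and Il5, which supports eosinophils, by 1.89 (SE 0.55, adjusted p = 0.0274). In 14 libraries Gzmb (adjusted p = 0.0732) and Il5 (adjusted p = 0.0772) were not called, and with 1 library removed Gzmb lost its call in 2 of 8 fits (up to 0.0605, WT-A 3 removed) and Il5 in 3 (0.0831, WT-S 2 removed). In TTPΔARE mice, where 2.9% of all genes were called, Gzmb had 3, 5, 2 and 2 counts in TTP-S and 15, 8, 9 and 15 in TTP-A, a log2 difference of 2.001 (SE 0.61, adjusted p = 0.0921). For Tnf the difference was 1.42 (SE 0.43, adjusted p = 0.0899) and for Il5 1.52 (SE 0.56, adjusted p = 0.174), so that Il13 alone of the 4 was called there.

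Pan-leukocyte genes other than Ptprc were all tested (16 of 16). In WT mice 10 rose and 2 fell (median log2 0.69), against 9.8% and 8.99% of all genes. In TTPΔARE mice 7 rose and none fell (0.85), against 1.55% and 1.35%. With 14 libraries 4 rose and 1 fell in WT mice (10.5% of all genes called), and 10 rose in TTPΔARE mice (6.33%). Cd52, a small surface glycoprotein of lymphocytes and monocytes, rose in both, by 1.19 (SE 0.24, adjusted p = 0.00494) and 1.12 (SE 0.24, adjusted p = 0.0253). Vav1, an exchange factor of leukocyte signalling, also rose in both, by 0.64 (SE 0.15, adjusted p = 0.0118; 0.0689 in a fit of the WT groups alone) and 0.70 (SE 0.15, adjusted p = 0.0267). Coro1a, which organises actin in leukocytes, rose by 1.10 in WT mice (SE 0.27, adjusted p = 0.0128; 14 libraries adjusted p = 0.0643). Spn (CD43) and Ikzf1 (a lymphoid transcription factor) rose in TTPΔARE mice by 1.63 (SE 0.29, adjusted p = 0.0116) and 1.14 (SE 0.23, adjusted p = 0.0201). Of these calls in TTPΔARE mice, Vav1 was lost in 7 of the 8 fits with 1 library removed, Ikzf1 in 5, Cd52 in 4 and Spn in 1, at adjusted p of up to 0.113 (Vav1), 0.0831 (Ikzf1) and 0.10 (Cd52) with TTP-A 1 removed and 0.0501 (Spn) with TTP-S 4 removed. Lcp1 (plastin-2, an actin-bundling protein) fell in WT mice by 0.32 (SE 0.06, adjusted p = 0.00294) from 214 ± 12.3 to 172 ± 2.90 CPM. Lcp1 was higher in TTP-A than in WT-A by 0.26 (SE 0.06, adjusted p = 0.0219; 14 libraries adjusted p = 0.0578; up to 0.0643 with TTP-A 3 removed). At most 4 genes were named per comparison, so a gene named in 1 genotype is not shown to differ between genotypes. Means in WT-S and WT-A were 2.62 and 5.30 CPM for Spn and 2.62 and 3.95 for Ikzf1. Those in TTP-S and TTP-A were 4.23 and 9.44 CPM for Coro1a and 206.6 and 206.4 for Lcp1. For the interaction, 0 genes of this list were called (0.0585% of all genes).

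**Figure D4:**
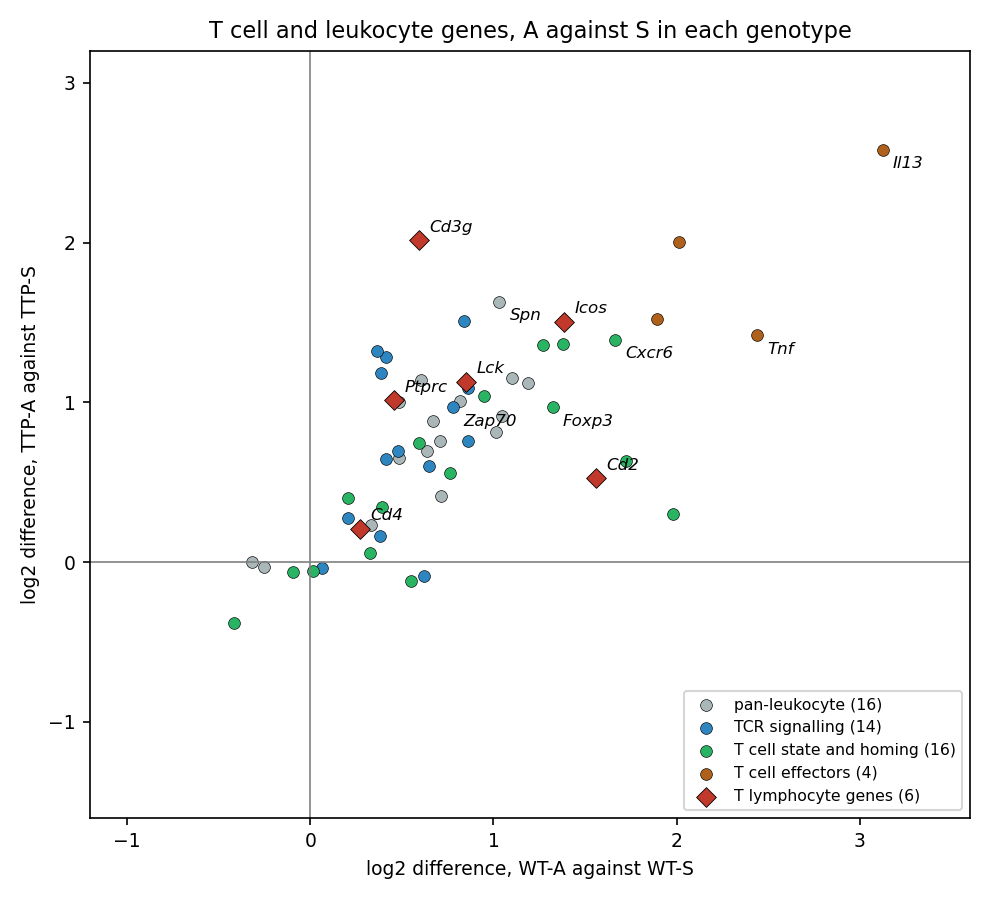
Log2 difference of A from S in WT mice (x axis) and in TTPΔARE mice (y axis) for the 6 tested T lymphocyte genes (red diamonds) and for the tested genes of 4 lists (circles). The 2 axes share no library. Icos and Il13 lie high on both axes, Cd4 lies near 0 on both, and Cd2 and Cd3g lie off the diagonal on opposite sides.

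Markers of other cells moved beside these genes, and their part in the results was not tested. Their counts of calls stand against 18.8% of all genes called in WT mice and 2.9% in TTPΔARE mice, and a share near these is no result about a list. Of 12 macrophage and dendritic cell markers, all tested, 5 rose in WT mice (2 in 14 libraries) and 1 in TTPΔARE mice, and their summed level was 161 to 200 CPM in WT-S, 190 to 293 in WT-A, 134 to 187 in TTP-S and 183 to 231 in TTP-A. Of 11 markers of natural killer and innate lymphoid cells, 6 were tested, 1 rose in WT mice and none was called in TTPΔARE mice (2 rose in 14 libraries), with sums of 133 to 188, 124 to 169, 119 to 134 and 145 to 185 CPM in the same order. Id2, which many cell types express, made up most of these sums (means of 120.3, 110.1, 99.98 and 129.7 CPM), and Ncr1, Klrb1c, Klrd1, Klre1 and Klrg1 each had group means of at most 0.434 CPM. Klra8 had no count in any library, and Klrk1 had means of 0.415, 0.387, 0.295 and 0.506 CPM. Il1rl1, the receptor of interleukin-33, had means of 10.81, 15.60, 7.58 and 18.69 CPM, Thy1 of 7.56, 10.81, 9.24 and 8.96, and Il18r1 of 8.16, 10.14, 6.905 and 10.06. Of 11 granulocyte and mast cell markers, 6 were tested, 1 rose in WT mice (none in 14 libraries) and 3 in TTPΔARE mice, with sums of 127 to 384, 200 to 588, 120 to 131 and 168 to 439 CPM. B and plasma cell markers summed to 1.87 to 10.4, 1.78 to 4.56, 0.541 to 1.07 and 1.58 to 3.27 CPM over 9 genes, of which 2 were tested: Cd79b rose and Jchain fell in WT mice, neither being called in 14 libraries. Squamous epithelial markers, absent from corpus glands, summed to 1.70 to 247 CPM in WT-S, 52.6 to 1050 in WT-A, 28.8 to 490 in TTP-S and 3.31 to 271 in TTP-A. Of 6 adipocyte markers, all tested, none was called in WT mice and 2 fell in TTPΔARE mice (3 in 14 libraries), with sums of 161 to 215, 148 to 270, 218 to 348 and 124 to 183 CPM. Of 10 squamous markers tested, 2 rose in WT mice (3 in 14 libraries). Markers of lymphoid follicles summed to 1.10 to 3.53, 4.74 to 5.02, 1.17 to 1.78 and 1.88 to 3.77 CPM over 6 genes, of which 3, 2, 3 and 3 were at 0 throughout the group. Madcam1, the only one tested, rose in WT mice (log2 1.35). Its log2 difference in TTPΔARE mice was 1.32 and was not called. Markers of corpus epithelium, abundant in every library as the tissue label says, summed to 128000 to 206000 CPM in WT-S, 86500 to 159000 in WT-A, 180000 to 188000 in TTP-S and 128000 to 186000 in TTP-A. Of 8 tested, 1 rose and 2 fell in WT mice (1 and 5 in 14 libraries), and 1 fell in TTPΔARE mice (2 in 14 libraries).

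The genes whose pattern was most like that of the CD3 chains were found by Pearson's r of log2 CPM with the log2 summed level of Cd3e, Cd3d and Cd3g over the 16 libraries. This is a description: the libraries share their groups and their depth, and each point rests on 3 to 38 counts of CD3. Apart from the 10 genes, those closest included Ptdss2 (0.83), Ccr7 (0.81), Kndc1 (0.80), Egr2 (0.80), Nxph3 (0.79), Rgs12 (0.78) and Ppp1r16b (0.77). Ccr7 is a homing receptor of naive and central memory T cells. Among the tested T lymphocyte genes r was 0.73 for Lck, 0.69 for Cd2, 0.57 for Icos, 0.56 for Ptprc and 0.14 for Cd4. Cd3g is part of the sum and is left out.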

How the data were processed

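The deposited values were raw counts of reads, 1 row per gene symbol and 1 column for each of the 16 libraries. Per the submitters' processing notes the tools were STAR 2.7.0f, featureCounts of Subread 1.6.4 and DESeq2 with genome build mm10; their settings, the annotation and strandedness are not given in the sources used here, so overlapping genes may share counts. Groups came from sample titles. Counts were fitted with edgeR 4.0.16 (R 4.3.3) after filterByExpr, with TMM scaling and a mean per group over all 16 libraries. Standard errors were computed as the log2 difference over the square root of F, and intervals are 95%. The procedure was tested on simulated data. Lengths, positions, GC content (15211 of 15385 tested genes) and UTRs came from GENCODE M21 by symbol. T cell receptor constant genes were not analysed here.

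Alternatives were DESeq2 1.42.0 (size factors, Wald test), no filter, only the groups compared, 14 libraries, the replicate number as a block, and leaving out each library. No filter together with 14 libraries was added after seeing the data. No pair of libraries of a group agreed within sampling noise (chi-square over its degrees of freedom 4.74 to 93.8), so none was treated as a repeat deposit of another; this does not show that they came from separate mice. No interval here covers more than the spread between libraries. The members and lists were chosen with earlier results of these data known. Genes named were the 10 members, Zfp36, the called genes of 5 T cell and leukocyte lists (at most 4 per list and comparison), and the 8 most like CD3, of which 1 is not reported here.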

Additional observations from a re-analysis of the deposited data

Results flagged for a closer look

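Of 111 groups of 4 libraries examined for the genes named from the lists and the 10 T lymphocyte genes, 8 had 1 library far from the other 3 by Dixon's criterion, which chance alone flags in about 1 of 20 groups. In WT-S, Cd3d was at 0.0848 CPM in WT-S 2 and at 0 in the others, a matter of 2 counts. Cd3g was at 0.461 CPM in WT-S 4 against 0.17 in the next library, and Foxp3 at 0.358 CPM in the same library against 0.224. Coro1a was at 8.17 CPM in WT-S 1 against 5.43. In WT-A, Il13 (1.21 CPM) and Tnf (0.936 CPM) were highest in WT-A 3, against 0.826 and 0.541 in the next. Il2rg was at 4.86 CPM in TTP-S 2 against 4.01, and S1pr1 at 13.2 CPM in TTP-A 4 against 11.7.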

How the results depend on the processing

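The 15385 genes tested were kept in all alternatives except that without a filter, which ended the calls of Prkcq between WT-A and WT-S (adjusted p = 0.0548), of Zap70 (0.0552) and Foxp3 (0.074) between TTP-A and TTP-S, and of S1pr1 between TTP-A and WT-A (0.0511). Using only the groups compared, 612 genes were called between WT-A and WT-S, 1132 between TTP-A and TTP-S, 42 between TTP-S and WT-S and 1 between TTP-A and WT-A, and of the T lymphocyte genes 1 was called between WT-A and WT-S (Icos, as Cd2 had an adjusted p of 0.0514). The same fits also ended the calls, between WT-A and WT-S, of Fyn (adjusted p = 0.0517), Zap70 (0.104), Prkcq (0.124), S1pr1 (0.0717), Cd44 (0.0927), Gzmb (0.101), Il5 (0.0801) and Vav1 (0.0689), of Foxp3 between TTP-A and TTP-S (0.0617), and of S1pr1 (0.144) and Lcp1 (0.0883) between TTP-A and WT-A, and made Lck a call between TTP-A and TTP-S (0.0299). In 14 libraries the counts of genes were 1617, 974, 65 and 279 in the same order, and 44 for the interaction. DESeq2 called 863 between TTP-A and TTP-S, 98 between TTP-S and WT-S, 1574 between TTP-A and WT-A and 250 for the interaction. Between TTP-A and WT-A, DESeq2 and the 14 libraries each called 1 T lymphocyte gene, Cd4. With 1 library left out, the genes called ran from 1252 to 4982 (WT-A against WT-S), 60 to 944 (TTP-A against TTP-S), 1 to 15 (TTP-S against WT-S), 90 to 3205 (TTP-A against WT-A) and 2 to 231 (interaction), and the T lymphocyte genes called ran from 2 to 3 in WT mice and from 0 to 2 in TTPΔARE mice.

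Signs turned in 14 libraries for Cd4 between WT-A and WT-S (-0.0426), Ptprc between TTP-A and WT-A (-0.064) and the interaction of Cd4 (0.253), and without a filter in 14 libraries for the interaction of Cd3e (0.159). With 1 library left out, signs turned for Lck (-0.133 to 0.281) and Icos (-0.175 to 0.0528) between TTP-S and WT-S, for Cd3g (-0.245 to 0.462) and Icos (-0.169 to 0.192) between TTP-A and WT-A, and for the interactions of Cd4 (-0.218 to 0.0456) and Icos (-0.102 to 0.26), none of them called. The cause of these changes was not tested.

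No pairing by replicate number was seen: same-numbered libraries had correlations of -0.51 to 0.33 (24 pairs), and 3 of 16 correlated best with their own number. Such correlations cannot show that no pairing existed. With the replicate number as a block, 2853, 427, 5 and 624 genes were called in the 4 comparisons and 4 for the interaction, and Lck passed between WT-A and WT-S (0.87, adjusted p = 0.0493) and between TTP-A and TTP-S (1.16, adjusted p = 0.0439). Foxp3, Il2rg and Zap70 lost their calls between TTP-A and TTP-S (adjusted p = 0.0592, 0.0658 and 0.0544), as did Prkcq between WT-A and WT-S (0.0653); the block changed no other call among the genes named. The log2 differences of Cd3e, Cd3g, Cd3d, Cd8a and Cd5 between WT-A and WT-S without a filter had SEs of 0.55, 0.58, 0.87, 0.72 and 0.75, against 0.29 for Icos. These genes had 19 (Cd3d) to 115 (Cd3e) counts over the 16 libraries. Cd2, at 117 counts, had an SE of 0.39 in that fit. The part of depth in these SEs was not tested.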

Other observations

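The genes most like Cd4 were looked up in the same way as those of the CD3 chains, a choice made after the values of Cd4 were seen. Over 16 libraries the closest by Pearson's r of log2 CPM were Lamb1 (0.88), Lama4 (0.87), Mmp2 (0.87), Col1a2 (0.86), Rundc3b (0.85), Col12a1 (0.85), Bicc1 (0.83) and C5ar1 (0.83). Lamb1, Lama4, Col1a2 and Col12a1 encode laminin and collagen chains and Mmp2 a matrix protease, all of them known from stroma, and C5ar1 is a complement receptor of myeloid cells. In 14 libraries r was 0.93, 0.91, 0.90, 0.92, 0.91, 0.87, 0.87 and 0.83 in the same order. Cd4 had an r of 0.14 with the CD3 sum (0.12 in 14 libraries). These are descriptions over libraries that share their groups.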
